A study of Macaca mulatta with 43 samples.

Results

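NTRK3, IGF1R and IGF2R are receptors for neurotrophins and insulin-like growth factors, and their mRNA was followed here in the prefrontal cortex of rhesus macaques after long-term ethanol drinking. Every probeset whose only gene symbol in the array's probe table was one of these names was taken, which gave 9 of the 52865 probesets on the array: 4 for NTRK3, 3 for IGF1R and 2 for IGF2R. A probeset is a group of short probes read together as 1 value, given here on the log2 scale. All 9 passed the filter on low values, as did 24151 probesets in all. The 3 genes were selected on the contrast of ethanol-drinking with control animals in these same arrays, so for them that contrast is given below as a description: no p-value is printed for it, and counts of probesets past the threshold stand only beside the share over the whole array.

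The 43 arrays came from 43 adult male macaques aged 5 to 11 years, housed singly. The 32 ethanol-drinking animals were first induced to drink by a scheduled procedure and then had 4% (w/v) ethanol and water freely available for 22 h a day over 1 year (11 animals of cohort 4, 8 of cohort 5, 8 of cohort 7a and 5 of cohort 7b). The 11 controls drank water and received a maltose dextrin solution matched in calories, but no ethanol (5 of cohort 5, 4 of cohort 7a and 2 of cohort 7b, with none in cohort 4). RNA of Brodmann areas 24, 25 and 32 was pooled within each animal and hybridised to 1 array. RNA of cohorts 4 and 5 was extracted with one kit and processed first, and RNA of cohorts 7a and 7b with another kit and later, so kit, processing time and cohort cannot be told apart between these 2 sets.

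NTRK3 encodes TrkC, the receptor tyrosine kinase that binds neurotrophin-3 and supports the survival of neurons and the formation of their synapses. IGF1R is the receptor tyrosine kinase that binds IGF1 and IGF2 and signals through IRS and SHC adaptors to the PI3K-AKT and RAS-ERK pathways, as NTRK3 also does through adaptors of its own. IGF2R is the cation-independent mannose 6-phosphate receptor: it has no kinase, carries lysosomal enzymes tagged with mannose 6-phosphate, and takes IGF2 up for breakdown.

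The first principal component of the tested probesets, with 54.7% of the variance, split the processing sets without overlap. The value of the actin probeset near the 3′ end of the transcript minus that near the 5′ end, which is read as a sign of RNA integrity or labelling, lay at 4.24 to 4.95 in cohorts 4 and 5. In cohorts 7a and 7b it averaged 1.26 ± 0.21 in ethanol-drinking animals of 7a (SD, n = 8) and 0.82 ± 0.06 in their controls (n = 4), and 1.10 ± 0.37 in ethanol-drinking animals of 7b (n = 5) and 0.78 ± 0.04 in their controls (n = 2). Animal 41, a drinker of cohort 7b, had a bacterial spike-in (BioB) signal of 5.69, against 7.88 to 8.91 on the other 18 arrays of cohorts 7a and 7b. Neuronal genes such as SYT1, a synaptic vesicle calcium sensor, were strongly present (13.38 in ethanol-drinking animals and 13.33 in controls), as was MBP of myelin (12.61 and 12.73).

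NTRK3 was read by 4 probesets at different levels, and a pair of them stood higher in ethanol-drinking animals of cohorts 7a and 7b. They are numbered here by the middle part of their names: 33101 (MmugDNA.33101.1.S1_s_at), 29582 (MmugDNA.29582.1.S1_at), 17854 (MmugDNA.17854.1.S1_at) and 24910 (MmugDNA.24910.1.S1_at). Levels of different probesets are not comparable with each other, because their probes bind with different strength.

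Probeset 33101 of NTRK3 read lowest 9.44, median 9.55 and highest 9.69 in the 8 ethanol-drinking animals of cohort 7a, against 8.81, 8.98, 8.75 and 8.50 in the 4 controls. In cohort 7b it read 9.50, 9.51, 9.42, 9.70 and 9.67 in ethanol-drinking animals, against 8.35 and 8.18 in controls. No drinker overlapped a control in either cohort. In cohort 5 the groups overlapped fully: the drinkers ran from 8.52 through a median of 8.90 to 9.05, and the controls read 8.86, 8.96, 8.74, 8.79 and 8.94. Drinkers of cohort 4 ran from 8.83 to 9.16 with a median of 8.99. The difference of ethanol-drinking from control animals was thus 0.79 ± 0.10 in 7a and 1.29 ± 0.10 in 7b (SE of the difference), against -0.003 ± 0.08 in cohort 5.

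Probeset 29582 of NTRK3 averaged lower in controls of cohorts 7a and 7b (8.69 and 8.44) than in any other group (8.94 to 8.99). It read 9.01, 9.04, 9.07, 8.85 and 8.96 in ethanol-drinking animals of cohort 7b, against 8.45 and 8.43 in controls, without overlap. In cohort 7a the drinkers ran from 8.83 to 9.18 (median 8.94) and the controls read 8.94, 8.79, 8.60 and 8.43, so 1 control lay among the drinkers. In cohort 5 the drinkers ran from 8.81 to 9.11 and the controls from 8.89 to 9.04. The other NTRK3 probesets did not share this pattern. Probeset 17854 differed by 0.01 ± 0.11 (cohort 5), 0.01 ± 0.11 (7a) and 0.42 ± 0.20 (7b), and 24910 by 0.03 ± 0.14, -0.16 ± 0.10 and 0.09 ± 0.19 in the same cohorts, with overlapping groups in every case.

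**Figure D1:**
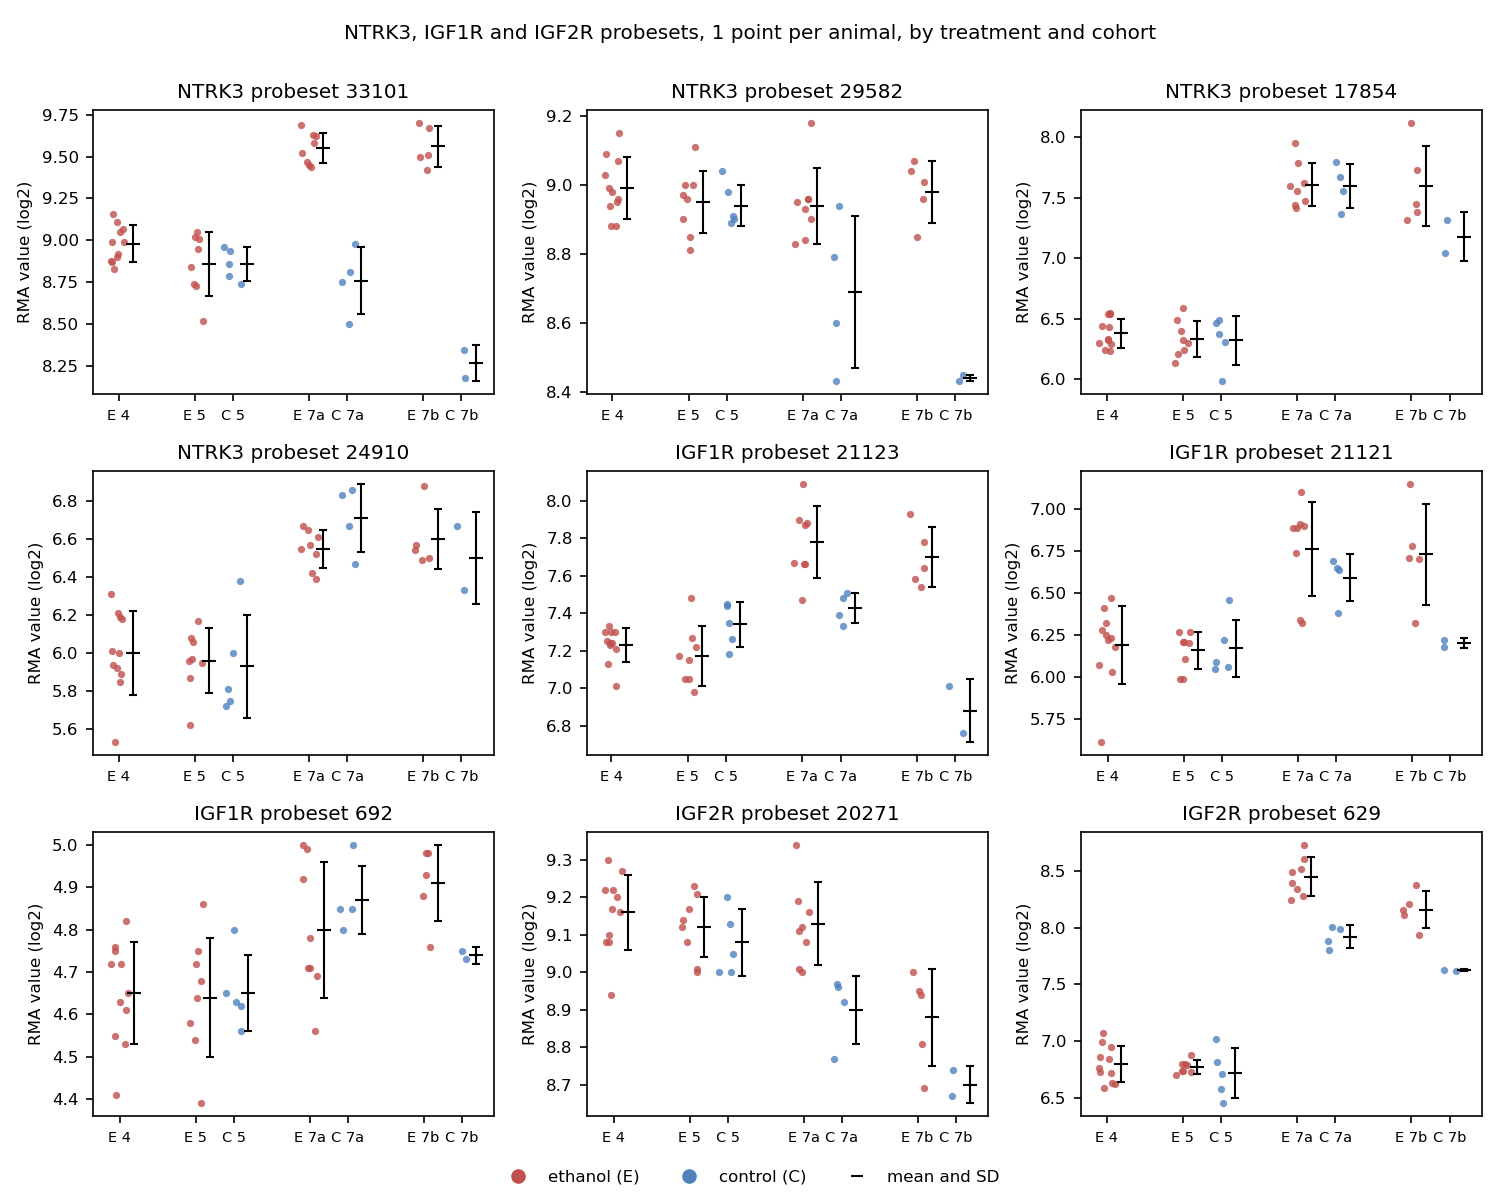
Values of the 9 probesets (y axis, log2, a scale of its own in each panel) by treatment and cohort (x axis, E for ethanol and C for control), with 1 point per animal and black bars for the group mean and SD. In NTRK3 probeset 33101 the ethanol-drinking animals of cohorts 7a and 7b sit between 9.42 and 9.70, above their controls at 8.18 to 8.98, while in cohort 5 both groups overlap.

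IGF1R was read by probesets 21123 (MmugDNA.21123.1.S1_at), 21121 (MmugDNA.21121.1.S1_at) and 692 (MmunewRS.692.1.S1_at). Probeset 21123 read 7.58, 7.54, 7.93, 7.78 and 7.64 in ethanol-drinking animals of cohort 7b, against 6.76 and 7.01 in controls, so the groups stood apart. In cohort 7a the drinkers ran from 7.47 to 8.09 with a median of 7.77, against 7.51, 7.48, 7.33 and 7.39 in controls, and the lowest drinker lay among the controls. In cohort 5 the order was the other way but overlapping, at 6.98 to 7.48 (median 7.16) in drinkers and 7.18, 7.26, 7.35, 7.44 and 7.45 in controls. By cohort, the drinkers differed from their controls by -0.17 ± 0.08 (cohort 5), 0.35 ± 0.08 (7a) and 0.81 ± 0.14 (7b). For 21121 these differences were -0.02 ± 0.09, 0.18 ± 0.12 and 0.53 ± 0.13. For 692, the probeset with the lowest signal of the 9 (mean 4.73 over 43 arrays), they were -0.01 ± 0.06, -0.08 ± 0.07 and 0.17 ± 0.04.

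IGF2R was read by probesets 20271 (MmugDNA.20271.1.S1_at) and 629 (MmuSTS.629.1.S1_at). Probeset 629 ran from 8.24 to 8.73 (median 8.44) in ethanol-drinking animals of cohort 7a, against 8.01, 7.80, 7.88 and 7.99 in controls. In cohort 7b it read 8.16, 8.11, 7.94, 8.38 and 8.21 in ethanol-drinking animals, against 7.63 and 7.62 in controls. Drinkers and controls did not overlap in either cohort, and the difference was 0.53 ± 0.08 in 7a and 0.53 ± 0.07 in 7b, against 0.06 ± 0.10 in cohort 5, where the groups overlapped.

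Probeset 20271 of IGF2R ran from 9.001 to 9.34 (median 9.12) in ethanol-drinking animals of cohort 7a, against 8.92, 8.77, 8.97 and 8.96 in controls. In cohort 7b it read 8.996, 8.81, 8.95, 8.69 and 8.94 in drinkers, against 8.67 and 8.74 in controls. The groups stood apart in 7a, and in 7b the lowest drinker lay between the controls. Drinkers exceeded controls by 0.22 ± 0.06 (7a), 0.17 ± 0.07 (7b) and 0.04 ± 0.05 (cohort 5).

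**Figure D2:**
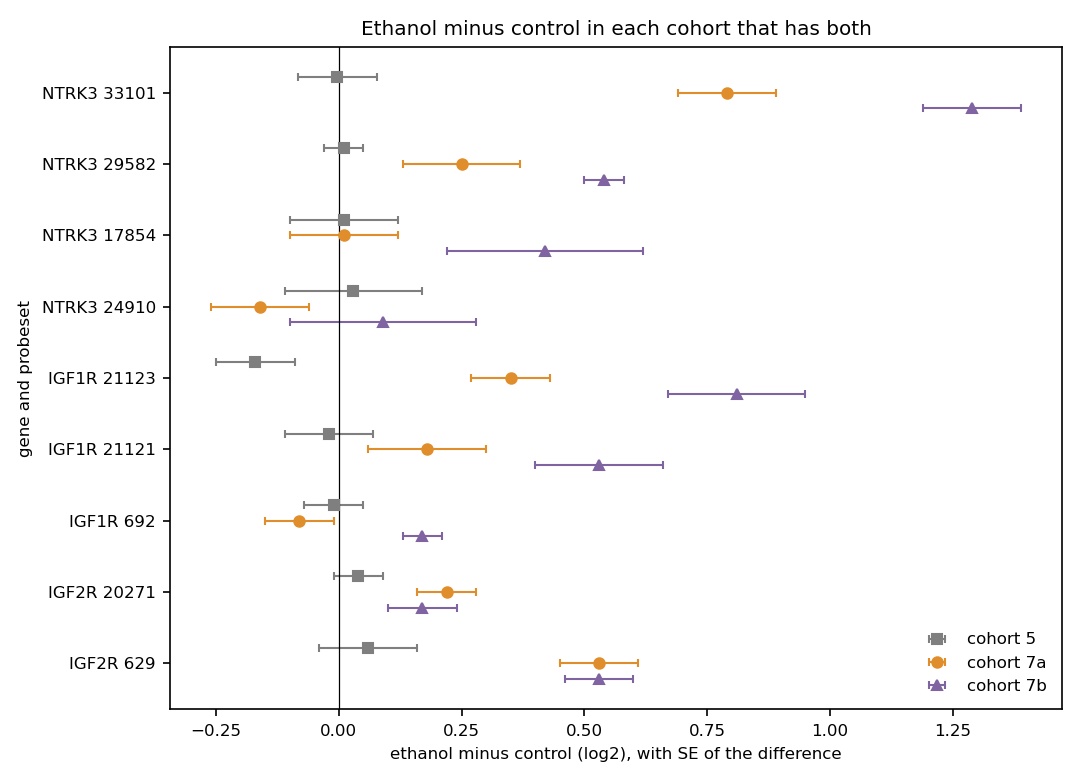
Ethanol-drinking minus control animals (x axis, log2) for each probeset (y axis) in cohorts 5, 7a and 7b, with bars for the SE of the difference. NTRK3 33101 lies at 0.79 and 1.29 for cohorts 7a and 7b but at -0.003 for cohort 5, and IGF2R 629 at 0.53 in both 7a and 7b.

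Over all 43 arrays with treatment as the only term, as the study's methods set it, the differences of the 9 probesets ran from -0.10 ± 0.12 for NTRK3 24910 to 0.47 ± 0.11 for NTRK3 33101 (ethanol minus control, SE). By limma at a Benjamini-Hochberg adjusted p of 0.05, 3 of the 9 were called higher (NTRK3 33101, NTRK3 29582 at 0.21 ± 0.05 and IGF2R 20271 at 0.15 ± 0.05), where 5.57% of all tested probesets were called higher, 10.6% lower and 16.2% in either direction. With cohort as a term 5 were called higher, the added ones being IGF2R 629 (0.33 ± 0.07) and IGF1R 21123 (0.22 ± 0.08), beside 11.8% of all tested probesets, and in cohorts 7a and 7b alone 6 were, beside 13.3%. In cohort 7a 3 of the 9 had every drinker above every control, beside 4.55% of tested probesets, in cohort 7b 6 of 9 beside 15.6%, and in cohort 5 0 of 9 beside 0.104%. The genes were chosen by this contrast, so nothing is read from these counts. In tissue RNA of this kind, fewer cells of a type and less RNA per cell cannot be told apart.

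The actin value also averaged higher in ethanol-drinking animals than in controls of cohorts 7a and 7b. With cohort and the actin value both as terms, the difference was 0.45 ± 0.10 for NTRK3 33101, 0.28 ± 0.07 for IGF2R 629, 0.20 ± 0.06 for NTRK3 29582, 0.18 ± 0.04 for IGF2R 20271 and 0.14 ± 0.08 for IGF1R 21123. Pearson's r with the actin value was taken among the 13 drinkers of cohorts 7a and 7b, after removal of cohort means. It was 0.62 for NTRK3 33101 and 0.61 for IGF2R 629, but -0.57 for IGF2R 20271 and -0.57 for NTRK3 17854. For the remaining receptor probesets it ran from -0.18 to 0.44. Over all arrays, within treatment and cohort groups, r was only 0.20 for NTRK3 33101 and 0.05 for IGF2R 629. There it was -0.52 for IGF2R 20271 and -0.42 for NTRK3 17854, and ran from -0.28 to 0.38 for the rest. These points share arrays and normalisation, and probesets of the same gene had opposite signs. The difference between effects, cohorts 7a and 7b minus cohort 5, was 1.04 ± 0.10 for NTRK3 33101, 0.75 ± 0.11 for IGF1R 21123 and 0.48 ± 0.11 for IGF2R 629, and ran from -0.06 to 0.39 for the other 6 probesets.

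A comparison of drinkers between cohorts holds no control, so it is not the contrast that chose the genes. It is not independent of the choice, because the study named the genes from a module of probesets correlated over these same arrays. IGF2R was lower in drinkers of cohort 7b than in those of 7a by both of its probesets. Probeset 20271 averaged 8.88 ± 0.13 in the 5 drinkers of cohort 7b and 9.13 ± 0.11 in the 8 drinkers of 7a (SD). The difference was -0.25 ± 0.06 (SE, limma across all tested probesets, adjusted p = 0.0083). The highest drinker of 7b read 8.996 and the lowest drinker of 7a 9.001, so the groups met without overlapping.

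Probeset 629 averaged 8.16 ± 0.16 in drinkers of cohort 7b and 8.45 ± 0.17 in those of 7a, a difference of -0.29 ± 0.08 (limma, adjusted p = 0.0185), and the groups overlapped between 8.24 and 8.38. Of all tested probesets, 11.2% were called in this comparison and 6.96% were called lower. Without animal 41, the drinker with the low spike-in signal, probeset 629 differed by -0.24 with an adjusted p of 0.0751 in limma and was no longer called. With the actin value as a term both stayed called, at -0.29 ± 0.06 for 20271 (limma, adjusted p = 0.00122) and -0.27 ± 0.08 for 629 (adjusted p = 0.0282). Controls were lower in 7b as well, at 8.67 and 8.74 against 8.77 to 8.97 for 20271, and at 7.63 and 7.62 against 7.80 to 8.01 for 629, which with 2 and 4 animals is given as values only.

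None of the NTRK3 and IGF1R probesets was called between drinkers of cohorts 7b and 7a. Their differences lay between -0.08 and 0.11, each within 2 standard errors, with adjusted p from 0.38 to 0.974 by limma. NTRK3 33101 differed by 0.01 ± 0.08 and IGF1R 21123 by -0.08 ± 0.08. No receptor probeset was called between drinkers of cohorts 5 and 4. All 9 differences, cohort 5 minus cohort 4, lay between -0.12 and -0.01, 0 were called by limma, 0 had an unadjusted p under 0.05 (the lowest was 0.0545, for NTRK3 33101 at -0.12 ± 0.06), and 0% of all tested probesets were called, with 886 at an unadjusted p under 0.05.

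**Figure D3:**
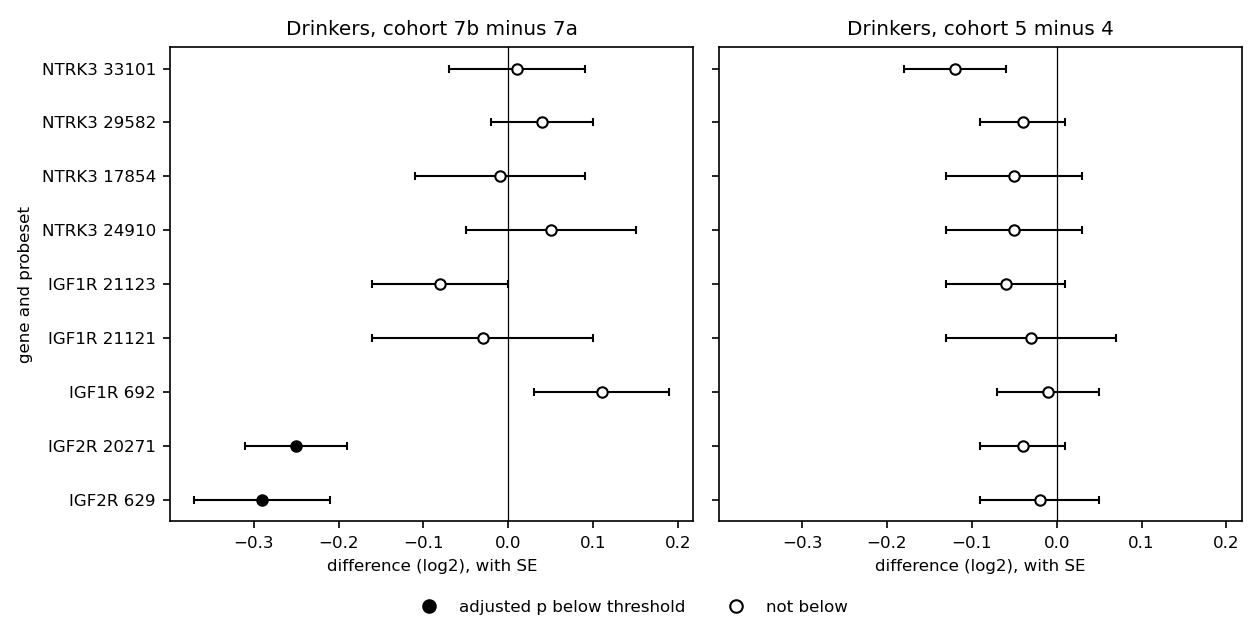
Differences between drinkers of different cohorts (x axis, log2, bars for SE) for each probeset (y axis), cohort 7b minus 7a on the left and 5 minus 4 on the right, with filled points for an adjusted p under 0.05 in limma. Both IGF2R probesets, at -0.25 and -0.29, are the filled points, and all 9 points on the right lie between -0.12 and -0.01.

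Between the processing sets, probesets of the same gene moved apart. IGF2R 629 averaged 8.34 ± 0.22 in the 13 drinkers of cohorts 7a and 7b and 6.79 ± 0.12 in the 19 drinkers of cohorts 4 and 5 (SD), without overlap, while IGF2R 20271 averaged 9.03 ± 0.17 and 9.14 ± 0.10. NTRK3 17854 averaged 7.60 ± 0.24 in drinkers of 7a and 7b and 6.36 ± 0.13 in those of 4 and 5, while NTRK3 29582 averaged 8.96 ± 0.10 and 8.97 ± 0.09. So 1 probeset of each of these genes shifted by 1.55 and 1.24 and another by -0.11 and -0.02. The IGF1R probesets shifted by 0.54, 0.58 and 0.19. Over all tested probesets the shift had a median of 0.02, and 5% of them lay below -0.50 and 5% above 0.89. A level of any of the 3 receptors set across the processing sets therefore depends on the probeset.

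Within groups the probesets of a gene followed each other only loosely. After the mean of each treatment and cohort group was removed, Pearson's r over the 43 arrays was 0.49 between NTRK3 33101 and 29582 and 0.42 between NTRK3 29582 and 24910, and 0.14 to 0.21 for the other 4 pairs of NTRK3. It was 0.33 between the IGF2R probesets and -0.06 to 0.25 among those of IGF1R. Across genes the 26 pairs ran from -0.28 to 0.36. These correlations describe arrays that share normalisation and are given without a test.

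**Figure D4:**
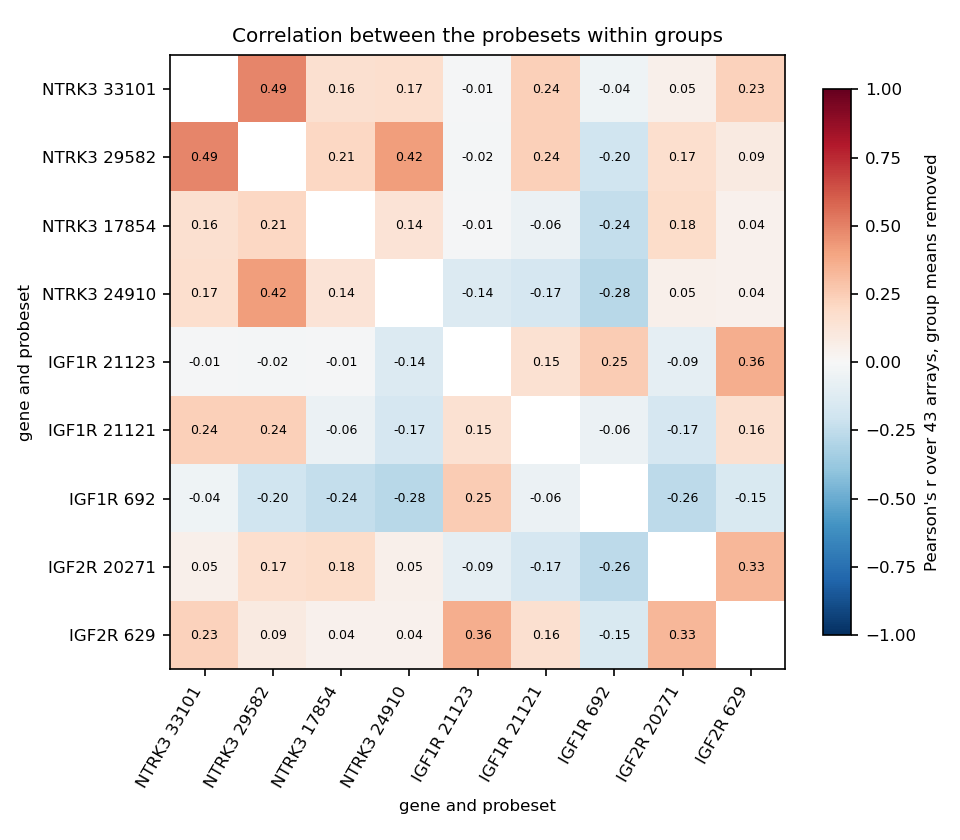
Pearson's r between each pair of probesets over 43 arrays after removal of group means (colour and printed value), with the probesets in the same order on both axes. The highest value is 0.49, between NTRK3 33101 and 29582, and pairs of different genes lie between -0.28 and 0.36.

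The genes most like each receptor's brightest probeset, by r within groups over the 43 arrays, were different for the 3 receptors. For NTRK3 33101 they were ATP13A2 (r = 0.73), BOP1 (0.71), MARK2 (0.70), GABRB1 (0.70) and CRBN (0.70). For IGF1R 21123 they were BAZ1B (0.69), MGA (0.67), LOC715396 (0.64), KANSL1L (0.63) and LOC705395 (0.63). For IGF2R 20271 they were CEP20 (0.73), DNTTIP1 (0.73), MTOR (0.72), HDAC8 (0.71) and SNX2 (0.71). MTOR, the kinase at the core of the mTOR complexes, is also in the signalling list described below, where it differed by 0.08 ± 0.05 between ethanol-drinking and control animals (limma, adjusted p = 0.347).

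The ligands, other receptors and signalling genes of these pathways were tested over all 43 arrays, ethanol-drinking minus control, with the brightest probeset of each gene. Of 86 listed genes, 66 were matched to a probeset and the others were not analysed here. By limma 12 were higher in ethanol-drinking animals and 1 lower, 53 did not pass, and the median difference was 0.03, beside -0.04 over all tested probesets. The 13 were 19.7% of the list, where 16.2% of all tested probesets were called, 5.57% higher and 10.6% lower. With cohort as a term 21 of the 66 were called (31.8%), beside 33.3% of all tested probesets. With the actin value as a further term 13 were called, and 3775 of all tested probesets in place of 8044. In cohorts 7a and 7b alone 30 were (45.5%), beside 40%. In either direction these shares were near those over the whole array. The directions were not alike. With cohort as a term 17 of the 21 were higher and 4 lower, against 2842 higher and 5202 lower over the whole array. The balance over the array depended on the processing. With treatment as the only term 1345 were higher and 2556 lower, but 1825 and 1239 with arrays centred on their medians. The directions in the list are therefore not read as opposed to those of the array.

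Among the ligands, IGF1, the growth factor that IGF1R binds, rose by its brightest probeset. Drinkers averaged 8.93 ± 0.13 and controls 8.66 ± 0.30, a difference of 0.28 ± 0.06 (limma, adjusted p = 0.00411). In cohort 7b it ran from 8.78 to 9.27 in drinkers and from 8.18 to 8.25 in controls, and in cohort 5 the medians were 8.86 in drinkers and 8.89 in controls. The other 3 IGF1 probesets differed by 0.02, -0.06 and -0.29, and the mean of all 4 by -0.01 ± 0.05 (adjusted p = 0.88), so the call rests on 1 of the 4 probesets.

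IGF2, the ligand of both IGF1R and IGF2R, averaged 7.34 in ethanol-drinking animals and 7.36 in controls (difference -0.03 ± 0.05, limma, adjusted p = 0.777). The neurotrophins did not pass: BDNF differed by -0.11 ± 0.08 (adjusted p = 0.364), NTF3, the ligand of NTRK3, by -0.11 ± 0.05 (0.123) and NTF4 by -0.05 ± 0.06 (0.553), with 1 of the 3 at an unadjusted p under 0.05. NTF3 and NTF4 were dim, at 4.45 and 4.29 in ethanol-drinking animals and 4.56 and 4.34 in controls. NGFR, the low-affinity receptor shared by the neurotrophins, differed by -0.32 ± 0.28 (adjusted p = 0.456) and INSRR, a relative of the insulin receptor, by 0.02 ± 0.05 (0.753). Of the 8 genes in the list of IGF-binding proteins, 0 were called by limma and 2 had an unadjusted p under 0.05. The list held IGFBP1 to IGFBP7, which hold IGFs in the extracellular space, together with IGFALS. With cohort as a term IGFBP3 (-0.21, limma, adjusted p = 0.0236) and IGFALS (-0.12, adjusted p = 0.0455) were called lower. In that fit 33.3% of all tested probesets were called in either direction.

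The receptor adaptors dock on the activated kinases. Of 18 measured adaptor genes 6 rose and 0 fell, or 7 and 0 with cohort as a term. Over all tested probesets 5.57% were called higher and 10.6% lower, or 11.8% higher with cohort as a term. In that last fit 5202 of the 24151 were called lower. SH2B1 averaged 9.09 ± 0.08 in ethanol-drinking animals and 8.86 ± 0.20 in controls (difference 0.23 ± 0.04, limma, adjusted p = 0.00143). SHC2 differed by 0.29 ± 0.06 (0.00223), IRS1, a main substrate of the insulin and IGF1 receptors, by 0.33 ± 0.08 (0.00515) and GRB2, which links receptors to RAS, by 0.17 ± 0.04 (0.00619). Both IRS1 probesets were higher (0.33 and 0.27), but the 4 of GRB2 ran from -0.17 to 0.17, with their mean at -0.003, and the second of SHC2 stood at -0.04. Of the sorting genes that work with IGF2R, GGA1, a coat adaptor that recognises mannose 6-phosphate receptors in the Golgi, rose by 0.15 ± 0.04 (adjusted p = 0.0174) and 5 of 6 did not pass. M6PR, the smaller cation-dependent mannose 6-phosphate receptor, differed by 0.05 ± 0.09 (adjusted p = 0.763).

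In the PI3K-AKT-mTOR arm 3 of 17 genes rose and 1 fell, or 6 and 2 with cohort as a term. Of all 24151 tested probesets 5.57% were called higher and 10.6% lower, or 2842 and 5202 probesets with cohort as a term. RHEB, the small GTPase that activates mTORC1, averaged 11.71 ± 0.13 in ethanol-drinking animals and 11.97 ± 0.25 in controls (difference -0.27 ± 0.06, limma, adjusted p = 0.00263), and all 3 of its probesets were lower (-0.27, -0.45 and -0.49). In cohort 7b it ran from 11.54 to 11.95 in drinkers and from 12.38 to 12.47 in controls, without overlap. RPTOR, the scaffold of mTORC1, rose by 0.21 ± 0.06 (adjusted p = 0.0155), GSK3A, a kinase that AKT inhibits, by 0.13 ± 0.04 (0.033) and AKT2 by 0.17 ± 0.06 (0.037). The probesets of RPTOR and AKT2 disagreed in sign, at 0.21 and -0.04 for RPTOR and at 0.17, 0.14, -0.06 and -0.10 for AKT2. With the mean over a gene's probesets neither was called (RPTOR 0.08, limma adjusted p = 0.35, and AKT2 0.04, adjusted p = 0.644). In the RAS-ERK arm 9 of 10 genes did not pass, and with cohort as a term 2 of the 10 were called higher. RPS6KA2, a kinase downstream of ERK, rose by 0.22 ± 0.04 with treatment as the only term (limma, adjusted p = 0.00162). Without control 37 or control 38 of cohort 7b, 7 of the 66 genes were called in place of 13. GGA1, RPTOR, GSK3A and AKT2 were then no longer called. Over all 24151 tested probesets the calls fell too, from 3901 to 1719 without control 37 and to 1748 without control 38. AKT2 also lost its call without control 25, 27 or 28 of cohort 7a (adjusted p = 0.0923, 0.0763 and 0.0609 in limma) and GSK3A without 27 or 28 (0.0573 and 0.053), and with cohort and the actin value as terms GGA1, GSK3A and AKT2 were not called (0.0581, 0.0564 and 0.138).

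**Figure D5:**
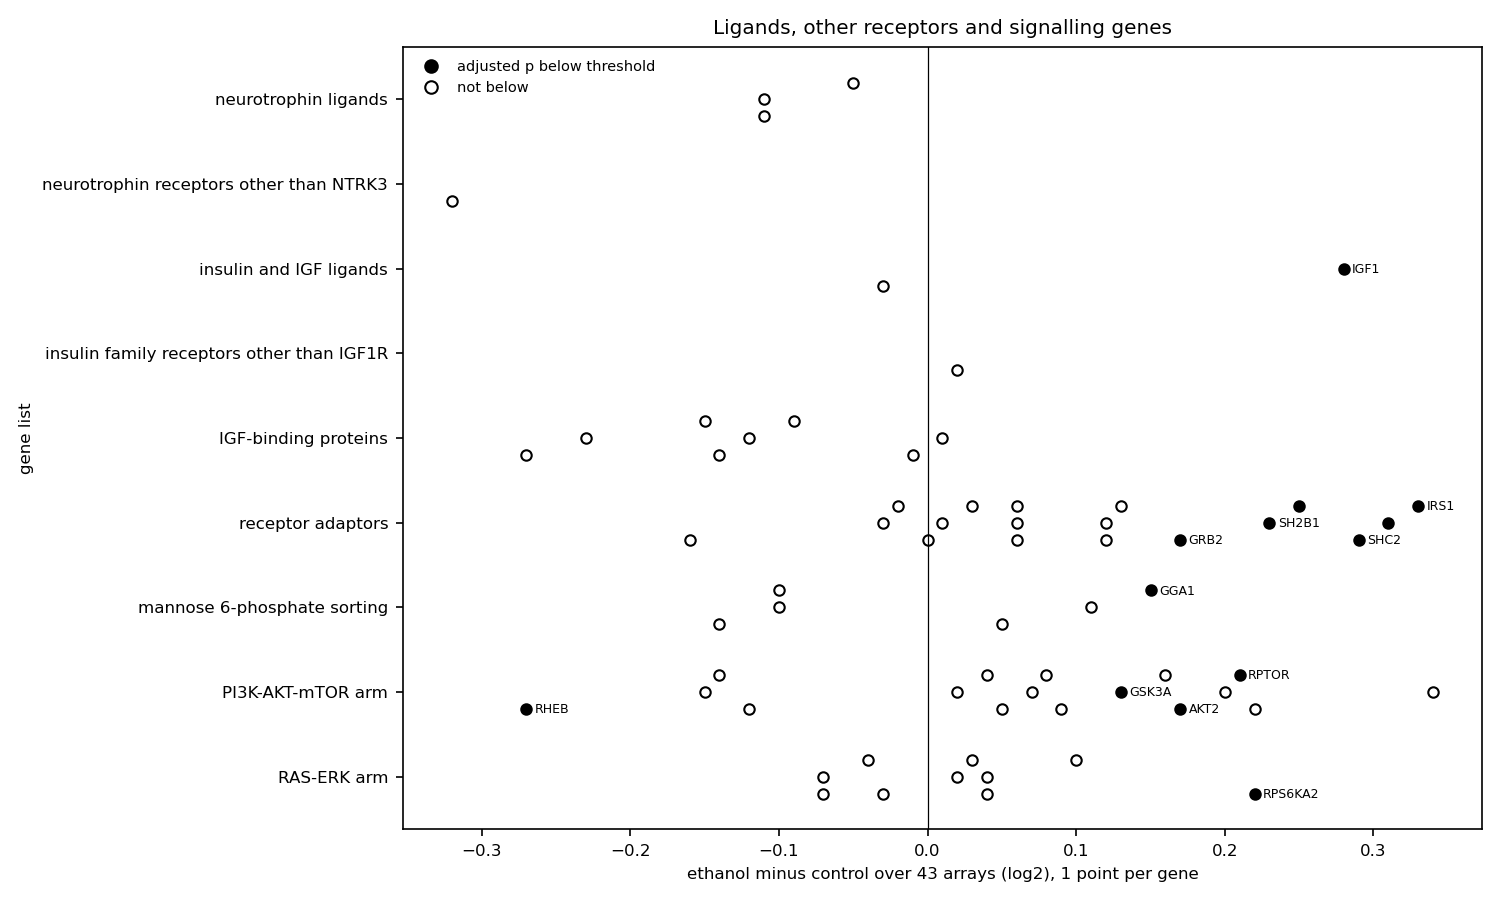
Ethanol-drinking minus control animals over 43 arrays (x axis, log2) for 66 genes, 1 point per gene, in 9 lists (y axis), with filled points for an adjusted p under 0.05 in limma. Filled points lie to the right of 0 except RHEB at -0.27, and 6 of them are among the 18 receptor adaptors. Over all tested probesets 5.57% were called higher and 10.6% lower.

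In a test of the effect in cohorts 7a and 7b minus that in cohort 5, 17 of the 66 genes were called with a positive difference and 5 with a negative one, which is 33.3% of the list. Over all tested probesets 31.6% were called in either direction, 10.3% with a positive and 21.3% with a negative difference. The share in either direction was thus near that over the array. The calls in the list were mostly positive, though, and those over the array mostly negative. The difference of effects was not fitted with arrays centred on their medians, which turned the balance over the array for ethanol against control. Among the 18 receptor adaptors 5 were called with a positive and 2 with a negative difference. The list holds 1 probeset per gene, while the share over the array counts every probeset. IGF1 stood at 0.62 ± 0.10 (limma, adjusted p = 3.89e-06) and RHEB at -0.54 ± 0.07 (adjusted p = 2.27e-07). In cohort 5 alone 0 of the 66 genes were called by limma and 4 had an unadjusted p under 0.05, beside 1 and 1148 of all tested probesets.

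Of the marker lists, none of the 5 measured neuron genes was called by limma between ethanol-drinking and control animals, with 0 at an unadjusted p under 0.05 and the mean level of the list at 11.25 to 11.85 in drinkers and 11.35 to 11.79 in controls. The microglia list held 2 of 7 genes that fell, AIF1 (-0.42, adjusted p = 0.00441) and P2RY12 (-0.49, adjusted p = 0.0175), and its mean level spanned 6.94 to 7.47 in drinkers and 7.10 to 7.62 in controls. In the astrocyte, oligodendrocyte, vascular and choroid plexus lists 0 of 5, 0 of 2, 0 of 6 and 0 of 4 genes were called, with 1, 0, 0 and 1 at an unadjusted p under 0.05. HBB, 1 of 2 red blood cell genes, fell (-0.23, limma, adjusted p = 0.0299). In this fit 5.57% of all tested probesets were called higher and 10.6% lower. With cohort as a term the calls by limma were different, and of the 24151 tested probesets 2842 were called higher and 5202 lower. The neuron genes NRGN (0.24, adjusted p = 8.82e-04) and SLC17A7 (0.15, 0.0444) and the astrocyte gene GFAP (0.27, 0.0261) were higher in drinkers. CX3CR1 (-0.20, adjusted p = 0.00761) was then lower beside AIF1 and P2RY12, and of the red blood cell genes ALAS2 (-0.12, 0.0354) was called and HBB (0.0586) was not. The part of these cells in the differences above was not tested.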

How the data were processed

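Values were the log2 RMA values that the authors deposited for 43 Affymetrix GeneChip Rhesus Macaque Genome Arrays: background-corrected, quantile normalised over all arrays together and summarised per probeset with the affy package for R. Versions are not given in the sources used here. These values carry no batch adjustment, whereas the study describes adjusting its own for processing batch with the ComBat method. Quantile normalisation removes shifts common to a whole array, so a value is relative to the rest of its array. The labels do not assign arrays to hybridisation batches, which were therefore not used. Symbols came from the platform annotation.

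Probesets with a symbol and a value under 3.5 in fewer than 80% of arrays were kept (24151). Linear models (limma 3.58.1, R 4.3.3, Python 3.11.15) were fitted to all of them, with Benjamini-Hochberg adjustment over all and a threshold of 0.05; the script was tested on simulated data. For genes of the lists the kept probeset with the highest mean was used. Member probesets, ligands and receptors were all named, with up to 4 called genes by lowest adjusted p in each other list and the 5 genes most like each receptor. The members and lists were chosen with earlier results of these data known. Alternatives covered cohort terms, cohorts alone, filters, variance moderation, centring, the actin value as a covariate, means over probesets and single arrays left out. The number of animals limits the precision, and p-values rest on separate animals. No arrays held identical values (highest r 0.9956).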

Additional observations from a re-analysis of the deposited data

Results flagged for a closer look

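In 45 checks of a probeset within a group of 4 to 10 animals, 3 animals lay far from the rest of their group, where chance marks about 1 group in 20. NTRK3 probeset 29582 read 9.18 in 1 ethanol-drinking animal of cohort 7a, against 8.96 in the next. NTRK3 probeset 24910 read 6.88 in 1 ethanol-drinking animal of cohort 7b, against 6.57 in the next. IGF1R probeset 21121 read 6.38 in 1 control of cohort 7a, against 6.64 in the next.

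For 10 of the 17 named pathway genes the ethanol effect in cohorts 7a and 7b differed from that in cohort 5 by limma's test of the difference, where 31.6% of all tested probesets did. All 10 were also called between ethanol-drinking and control animals on the same arrays, and all but IGF1, a ligand, had been named for that call, so their number is not independent of it. The difference of effects was 0.62 ± 0.10 for IGF1 (SE, adjusted p = 3.89e-06), 0.66 ± 0.09 for SHC2 (1.51e-07), 0.41 ± 0.07 for SH2B1 (6.52e-06) and 0.32 ± 0.07 for GRB2 (3.45e-04). It was -0.54 ± 0.07 for RHEB (adjusted p = 2.27e-07), 0.29 ± 0.07 for RPTOR (0.00242), 0.31 ± 0.07 for GSK3A (6.18e-04) and 0.28 ± 0.11 for AKT2 (0.0454). It was 0.26 ± 0.08 for GGA1 (adjusted p = 0.0104) and 0.31 ± 0.08 for RPS6KA2 (0.00146).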

How the results depend on the processing

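The number of the 66 pathway genes called between ethanol-drinking and control animals was 13, and it was 21 with cohort as a term, 30 in cohorts 7a and 7b alone and 0 in cohort 5 alone, beside 16.2%, 33.3% and 40% of all tested probesets in the first 3 of these fits. Leaving out single arrays gave 7 to 17, with 7 without control 37 or control 38 of cohort 7b. Without these controls 1719 and 1748 of all tested probesets were called, against 3901 with every array. With cohort and the actin value both as terms 13 of the 66 genes were called. Over all tested probesets 3775 were, against 8044 with cohort as the only added term. Of the 9 receptor probesets 3 were called, 5 with cohort as a term, 6 in cohorts 7a and 7b alone, 0 in cohort 5 alone, and 2 to 3 with single arrays left out. These probesets were chosen by this contrast, 5.57%, 11.8% and 13.3% of all tested probesets were called higher in the first 3 fits, and nothing is read from the counts. Between drinkers of cohorts 7b and 7a, 1 to 2 receptor probesets were called with single arrays left out. The difference of effects gave 22 called pathway genes, and 18 to 24 with single arrays left out. In cohort 5 alone the signs of NTRK3 33101 (-0.003), IGF1 (-0.04) and SHC2 (-0.02) turned, as did those of NTRK3 17854 (0.01) and 24910 (0.03), IGF1R 21123 (-0.17) and 21121 (-0.02), NGFR (0.19) and IGF2 (0.04). With the mean over a gene's probesets those of IGF1 (-0.01) and GRB2 (-0.003) turned. The cause was not tested. Of the values for pathway genes under all settings 408 kept their side of the threshold, 29 lost the call and 1 gained it, with 4 counted apart as reversed in sign. For the receptors between cohorts of drinkers, 179 kept it and 1 lost it. Cohort 7b holds 2 controls, and cohort and processing cannot be told apart.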
